A study of Homo sapiens with 8 samples.

Results

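The peaks described here lie at 10 forkhead transcription factor genes, FOXO1, FOXO3, FOXO4, FOXK1, FOXK2, FOXP1, FOXN2, FOXN3, FOXJ2 and FOXJ3, among the Cut&Run peaks called for the PML::RARA fusion protein. Cut&Run cleaves and sequences the DNA beside an antibody bound in intact nuclei, so a peak marks where the antibody's target, here the fusion, was found on chromatin. The peaks were selected by the promoter label that the authors gave each peak, a gene symbol where the apex fell in a promoter. All peaks labelled with 1 of the 10 genes were taken, and with them the unlabelled peaks on the same chromosome whose centre lay within 50 kb of such a labelled peak. This gave 18 of the 15412 peaks of the list, of which 10 carried a label and 8 did not. The labelled peaks belonged to 7 of the 10 genes, and FOXO1, FOXJ2 and FOXJ3 had no labelled peak. Because the peak labels chose these genes, their number and their values are a description and carry no test.

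The cells were U937-PR9, a human monocytic leukaemia line that carries a PML::RARA transgene under a zinc-inducible promoter, treated with 100 μM ZnSO4 for 5 h. The list came from 2 replicate libraries of these induced cells with the antibody against the fusion. The series has 8 libraries, the same antibody and an anti-RARA antibody in zinc-treated and in water-treated cells with 2 replicates each, and the other libraries were not analysed here. Every library carries the same transgene in the same line, so zinc and the fusion it induces cannot be told apart in the list. For each peak the list gives 1 total signal and 1 height, the largest signal within the peak, and no value per replicate. No replicate error could therefore be attached to any value, the sequencing depth is unknown, and differences between peaks are given as ranks within the list. Rank 1 is the highest or widest of the 15412 peaks, and peaks of equal value share a rank. Heights were whole numbers from 13 to 87 with a median of 25, and the median width was 829.5 bp. The list holds binding positions and no RNA, so neither the cell type nor the expression of these genes could be checked in it.

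Forkhead proteins bind DNA through a winged-helix domain and are grouped into lettered subfamilies. The FOXO factors are switched by insulin and growth factor signalling. AKT phosphorylates them and they leave the nucleus, and in its absence they drive genes of cell cycle arrest, apoptosis and oxidative stress defence. FOXO3 in particular is known for keeping blood stem cells quiescent. FOXK1 and FOXK2 bind many of the same sites and repress starvation and autophagy genes. FOXP1 is a repressor with roles in B lymphocytes and in monocyte differentiation, FOXN2 and FOXN3 belong to a subfamily with links to the cell cycle checkpoint, and FOXJ2 and FOXJ3 are widely expressed activators.

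The sequences at the apexes show what kind of DNA these peaks sat on, and 6 of them are shown because they carry a promoter peak of the greatest height, the widest promoter peaks, those closest to a start site, a peak labelled far from its gene and an intronic peak with matches to 4 motif classes. Each is 101 bases of hg19 centred on the apex, 5′ to 3′ on the strand that the forkhead gene is read from, with capitals for matches to the 8 motif classes searched. The FOXO3 promoter peak is at chr6:108879693-108879793 on the plus strand, the FOXP1 promoter peak at chr3:71632328-71632428 on the minus strand, the FOXK1-labelled peak at chr7:4681465-4681565 on the plus strand, the FOXO4 promoter peak at chrX:70315630-70315730 on the plus strand, the FOXN3 promoter peak at chr14:89883563-89883663 on the minus strand and the FOXO3 intron peak at chr6:108887158-108887258 on the plus strand.
FOXO3 promoter: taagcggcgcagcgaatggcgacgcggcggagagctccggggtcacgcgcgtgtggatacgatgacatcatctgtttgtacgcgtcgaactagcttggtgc
FOXP1 promoter: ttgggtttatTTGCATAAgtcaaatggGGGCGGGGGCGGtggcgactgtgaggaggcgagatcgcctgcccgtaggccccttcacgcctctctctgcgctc
FOXK1 label: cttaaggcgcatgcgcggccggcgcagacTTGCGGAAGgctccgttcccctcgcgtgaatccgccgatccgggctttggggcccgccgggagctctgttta
FOXO4 promoter: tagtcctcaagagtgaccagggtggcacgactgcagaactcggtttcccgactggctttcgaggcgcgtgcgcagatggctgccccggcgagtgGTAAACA
FOXN3 promoter: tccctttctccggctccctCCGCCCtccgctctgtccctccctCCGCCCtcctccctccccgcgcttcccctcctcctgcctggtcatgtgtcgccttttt
FOXO3 intron: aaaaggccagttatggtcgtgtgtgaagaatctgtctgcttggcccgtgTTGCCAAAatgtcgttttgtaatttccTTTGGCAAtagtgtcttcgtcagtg
The FOXK1-labelled apex carried an ETS core match that runs into a C/EBP type match. The FOXO4 apex ended in a forkhead core match, read here as GTAAACA, which starts 44 bp downstream of the apex. The FOXO3 intron apex held a C/EBP type match and its reverse complement, TTGCCAAA and TTTGGCAA. The 101 bases at the FOXO3 promoter apex held no match to any of the 8 classes.

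FOXO3 and FOXN2 had the highest of the 18 peaks, both with a height of 54, above 97.2% of the list. FOXO3 and FOXP1 had the widest, at 3762 and 3423 bp. FOXO3 thus had a peak that was both high and wide, FOXN2 a high peak of 1802 bp, and FOXP1 a wide peak of ordinary height. The other 7 labelled peaks lay between 16 and 33 in height and between 397 and 1234 bp in width.

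**Figure D1:**
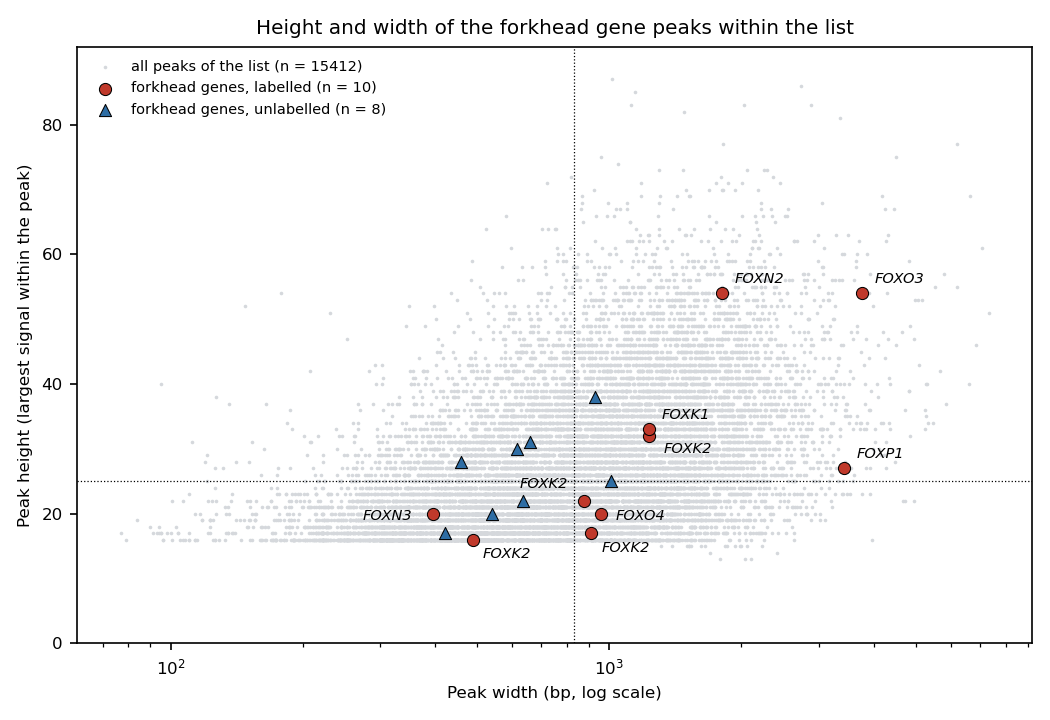
Height (largest signal within the peak) against width (bp, log scale) for all 15412 peaks (grey), the 10 labelled peaks (red circles, named by gene) and the 8 unlabelled peaks (blue triangles) of the forkhead genes, with dotted lines at the list medians of 25 and 829.5 bp. FOXO3 and FOXN2 share the height of 54, FOXO3 and FOXP1 stand at the right with 3762 and 3423 bp, and the unlabelled peaks lie between 17 and 38 in height.

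As a set, the 10 labelled peaks had a median height of 24.5, beside 26 for the 7169 labelled peaks of the list, and a median width of 1093 bp, beside 1108 bp. FOXK2 alone gave 4 of the 10 peaks. With the highest labelled peak of each gene the median height was 32, and with the widest the median width was 1234 bp. With neighbouring peaks under 1 kb apart merged, the medians were 29.5 and 1515.5 bp. With the 9 peaks whose apex lay within 1 kb of a start of these genes, whatever their label, the medians were lower, at 22 and 908 bp. No like values are given here for all labelled peaks. Above the list median of height were 5 of the 10, where 52.3% of all labelled peaks were, and above the list median of width were 8 of the 10, where 70.9% were. The 8 unlabelled peaks had a median height of 26.5, beside 23 for the 8243 unlabelled peaks of the list, and a median width of 625 bp, beside 634 bp. Of these 8, 4 were above the list median of height and 1 was at it, where 42.2% of all unlabelled peaks were above it. The median height of the unlabelled peaks depended on the rule. It was 28 at a limit of 20 kb, 24 at 100 kb and 22 for the unlabelled peaks over a forkhead gene. All labelled peaks of the list ran from 13 to 86 in height and from 77 to 7313 bp in width, and the labelled forkhead peaks from 16 to 54 and from 397 to 3762 bp.

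FOXO3 had the most wide-reaching peak of its subfamily. Its labelled peak at chr6:108878325-108882086 had a height of 54, rank 361, shared by 64 peaks of the list, and a width of 3762 bp, rank 83. The total signal was 45857, the largest of the 18 peaks, and the mean signal per base was 12.2, or 22.6% of the height. Among all labelled peaks the median of that share was 34.7%, so the FOXO3 peak had broad sides of lower signal around its apex. The apex lay 1295 bp upstream of the outermost FOXO3 start site in GENCODE and 2.38 kb upstream of the canonical one, and 254 bp upstream of the start of a long noncoding RNA gene, ENSG00000287044, on the opposite strand. The peak covered the outermost FOXO3 start and ended 34 bp before the canonical one.

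Beyond its promoter FOXO3 had 3 unlabelled peaks, all in intron 1. They lay 5.09 kb, 31.9 kb and 37.6 kb downstream of the canonical start. The peak nearest the promoter, at chr6:108886998-108887456, had a height of 28, rank 5666, and a width of 459 bp, rank 12609. The middle one, at chr6:108913658-108914197, had a height of 20, rank 10691, and a width of 540 bp, rank 11434. The farthest, at chr6:108919273-108919932, had a height of 31, rank 4397, and a width of 660 bp, rank 9747. The intronic peaks were narrower than the list median of width, and 2 of the 3 were above its median of height. A further pair of unlabelled FOXO3 peaks lay past the 50 kb limit. One in intron 1 was 74.9 kb from the labelled peak with a height of 17, and one downstream of the gene's end, at chr6:109010420-109011412, was 128.8 kb away with a height of 42, rank 1553, and a width of 993 bp. The latter was higher than each intronic peak of FOXO3. FOXO3B, a shorter gene on chromosome 17 similar in sequence to part of FOXO3, had 0 peaks over it. Reads from stretches that both genes share cannot be placed with certainty. Whether the FOXO3 peaks hold such stretches was not tested.

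FOXO4, the FOXO gene on the X chromosome, had a low peak placed almost on its start. The labelled peak at chrX:70315373-70316329 had a height of 20, rank 10691, and a width of 957 bp, rank 6366, and its apex was 21 bp upstream of the canonical start. Its height was below the list median and its total signal was 6600. The unlabelled peak of FOXO4, at chrX:70322946-70323952, was the higher of the pair, with a height of 25, rank 7226, and a width of 1007 bp, rank 5867. It lay over the last part of the gene, in the 3′ UTR of exon 3. Its apex was 1023 bp downstream of the nearest start site of CXorf65, the neighbouring gene. Peaks labelled CXorf65, with a height of 26, and IL2RG, with a height of 17, followed within 10 kb of the end of FOXO4. IL2RG encodes the shared gamma chain of interleukin receptors.

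FOXO1, the FOXO gene known for metabolic control and B cell development, had no peak. The gene spans chr13:41129804-41240778, and no peak lay over it or within 10 kb of it. The nearest peak was 104.2 kb away, carried the label of MRPS31, a mitochondrial ribosomal protein gene, and had a height of 22. Without a depth for the libraries, the absence of a row says only that no region at FOXO1 passed the authors' peak calling and reproducibility limits.

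FOXK2 had 7 of the 18 peaks, 4 labelled and 3 not, all on chromosome 17. The labelled peak at its canonical promoter, at chr17:80476915-80477789, had a height of 22, rank 9138, and a width of 875 bp, rank 7203, with the apex 0.218 kb upstream of the canonical start. Its mean signal was 48.4% of its height, the largest such share of the 18 peaks, so it was flat where the FOXO3 peak was pointed. The other 3 labelled peaks lay together in intron 8, 72.0 kb to 73.6 kb downstream, where GENCODE has an internal FOXK2 start site. The first of them, at chr17:80548658-80549891, had a height of 32, rank 4034, and a width of 1234 bp, rank 4076, and was higher than the canonical promoter peak. The second, at chr17:80550254-80550741, had a height of 16, rank 14278, and a width of 488 bp, rank 12206. The third, at chr17:80551138-80552045, had a height of 17, rank 13294, and a width of 908 bp, rank 6874, and its apex was 66 bp upstream of the internal start. Counting FOXK2, 12 genes of the list had at least 4 labelled peaks.

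The gaps within this intronic group were 362 bp and 396 bp. In the sequence of the region, chosen for a look after the values were seen, the second gap coincided with a tandem repeat. A word of 14 bases occurred 10 times from chr17:80550733-80551202, a stretch of 470 bp, with a median spacing of 51 bp that held at 8 of the 9 steps. Of the 10 copies, 7 lay inside the gap, 2 inside the third intronic peak, 1 across an edge and 0 inside the second. The repeat unit is shown on the plus strand with the counted word in capitals.
FOXK2 intron repeat unit: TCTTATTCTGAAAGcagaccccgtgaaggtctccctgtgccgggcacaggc
The apex of the second intronic peak lay 45 bp before the first copy of the word, and that of the third 8 bp past the last. The 2 low apexes thus stood on either side of the counted copies. The bases just before the first copy, within the second peak, resemble the lower-case part of the unit. The repeat thus reaches into the second peak, although the peak holds no whole copy of the word. Reads from such copies are hard to place in one position. The part of the repeat in the gap between the peaks was not tested.

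The unlabelled peaks of FOXK2 included the highest unlabelled peak of the forkhead genes. At chr17:80451984-80452911 it had a height of 38, rank 2313, and a width of 928 bp, rank 6675, and it lay 25.1 kb upstream of the canonical start, between FOXK2 and the end of NARF. A second one, 1754 bp farther on at chr17:80454666-80455300, had a height of 22, rank 9138, and a width of 635 bp, rank 10079. The unlabelled peak within the gene, at chr17:80561735-80562349, had a height of 30, rank 4820, and a width of 615 bp, rank 10356. It lay in a 3′ UTR exon of a FOXK2 transcript, 84.5 kb from the canonical start. Its apex was 640 bp downstream of another FOXK2 start site in GENCODE. It was also 99 bp upstream of the start of ENSG00000261845, a long noncoding RNA gene. The canonical promoter peak was thus lower than 3 of the other 6 FOXK2 peaks and equal to another.

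FOXK1 had 1 labelled peak, and that peak did not lie at a FOXK1 start in GENCODE. At chr7:4680835-4682063 it had a height of 33, rank 3709, and a width of 1229 bp, rank 4117. Its apex was 40.4 kb upstream of the FOXK1 start and 364 bp upstream of the start of a long noncoding RNA gene, ENSG00000286874. The nearest peak to the canonical FOXK1 start was 33.0 kb away. The authors took promoters from the UCSC known genes, and of the 6987 labelled peaks with a GENCODE symbol, 92.3% had their apex within 1 kb of a start of that symbol, so the FOXK1 label belongs with the minority. Over the gene body were 2 unlabelled peaks past the 50 kb limit, in intron 1 with a height of 21 and in intron 2 with a height of 16, the latter with its apex 4226 bp inside the gene from another of its 3 GENCODE start sites. Both were lower than the labelled peak.

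FOXP1 had the second widest peak of the forkhead genes, at its promoter. At chr3:71630721-71634143 it had a height of 27, rank 6155, and a width of 3423 bp, rank 119. The apex lay in intron 1, 501 bp inside the gene from the canonical start, close to the middle of the peak. The mean signal was 7.30 per base, beside a median of 8.74 over the list, so this peak was wide with a low signal per base. Its total signal was above 16327, the upper quartile of all labelled peaks. The FOXO3 peak, of like width, had 12.2 per base and a total of 45857, against 24993 at FOXP1.

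FOXP1 spans 629.3 kb, and 5 more peaks lay over it that the 50 kb rule does not hold. The highest was not labelled FOXP1 but MIR1284, a microRNA gene in FOXP1 intron 2, and is named here because its values stood out. At chr3:71591303-71592926 it had a height of 58, rank 196, and a width of 1624 bp, rank 2001, above each of the 18 peaks in height. Its apex was 601 bp upstream of MIR1284 and 867 bp inside FOXP1 from 1 of the 67 start sites that GENCODE gives the gene. The highest unlabelled peak of FOXP1, at chr3:71493051-71494094 in intron 3, had a height of 34, rank 3401, and a width of 1044 bp and lay 137 kb from the labelled peak. The other 3, also in intron 3, had heights of 16, 20 and 24. A FOXP1 peak higher than the promoter peak was thus found at 2 places inside the gene.

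FOXN2 had a single peak and it was among the highest of the forkhead genes. It lay at the FOXN2 promoter and had a height of 54, rank 361, and a width of 1802 bp, rank 1507. The mean signal of 14.5 per base was the highest of the 18 peaks, and the total was 26107. The apex was 247 bp upstream of the outermost FOXN2 start and 166 bp upstream of the start of ENSG00000230773, a long noncoding RNA gene read in the other direction. The apex lay 16.4% of the way along the peak, so most of the peak extended downstream over the FOXN2 start. No other peak lay over FOXN2 or within 10 kb of it.

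FOXN3 had the narrowest labelled peak of the forkhead genes. At chr14:89883413-89883809 it had a height of 20, rank 10691, and a width of 397 bp, rank 13425, with the apex 36 bp upstream of the canonical start. The apex sequence printed above held 2 GC box matches, and the 401 bases around the peak centre were 78.3% G and C, the highest share of the 18 peaks. The unlabelled FOXN3 peak lay within the long FOXN3 gene, 49.4 kb upstream of the canonical start. At chr14:89932790-89933212 it had a height of 17, rank 13294, and a width of 423 bp, rank 13084. FOXN3 and FOXN2, of 1 subfamily, had promoter peaks of 20 and 54 in height and of 397 and 1802 bp in width, with no replicate value to set beside the difference.

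The FOXJ genes had no row. The nearest peak to FOXJ2, which spans chr12:8185312-8208113, was unlabelled, 5492 bp upstream, 708 bp wide and with a height of 16. The nearest peak to FOXJ3, which spans chr1:42642210-42801548, was 140.1 kb away, carried the label of HIVEP3, a zinc finger gene, and was 1384 bp wide with a height of 29. Neither FOXJ gene had a peak over its body.

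**Figure D2:**
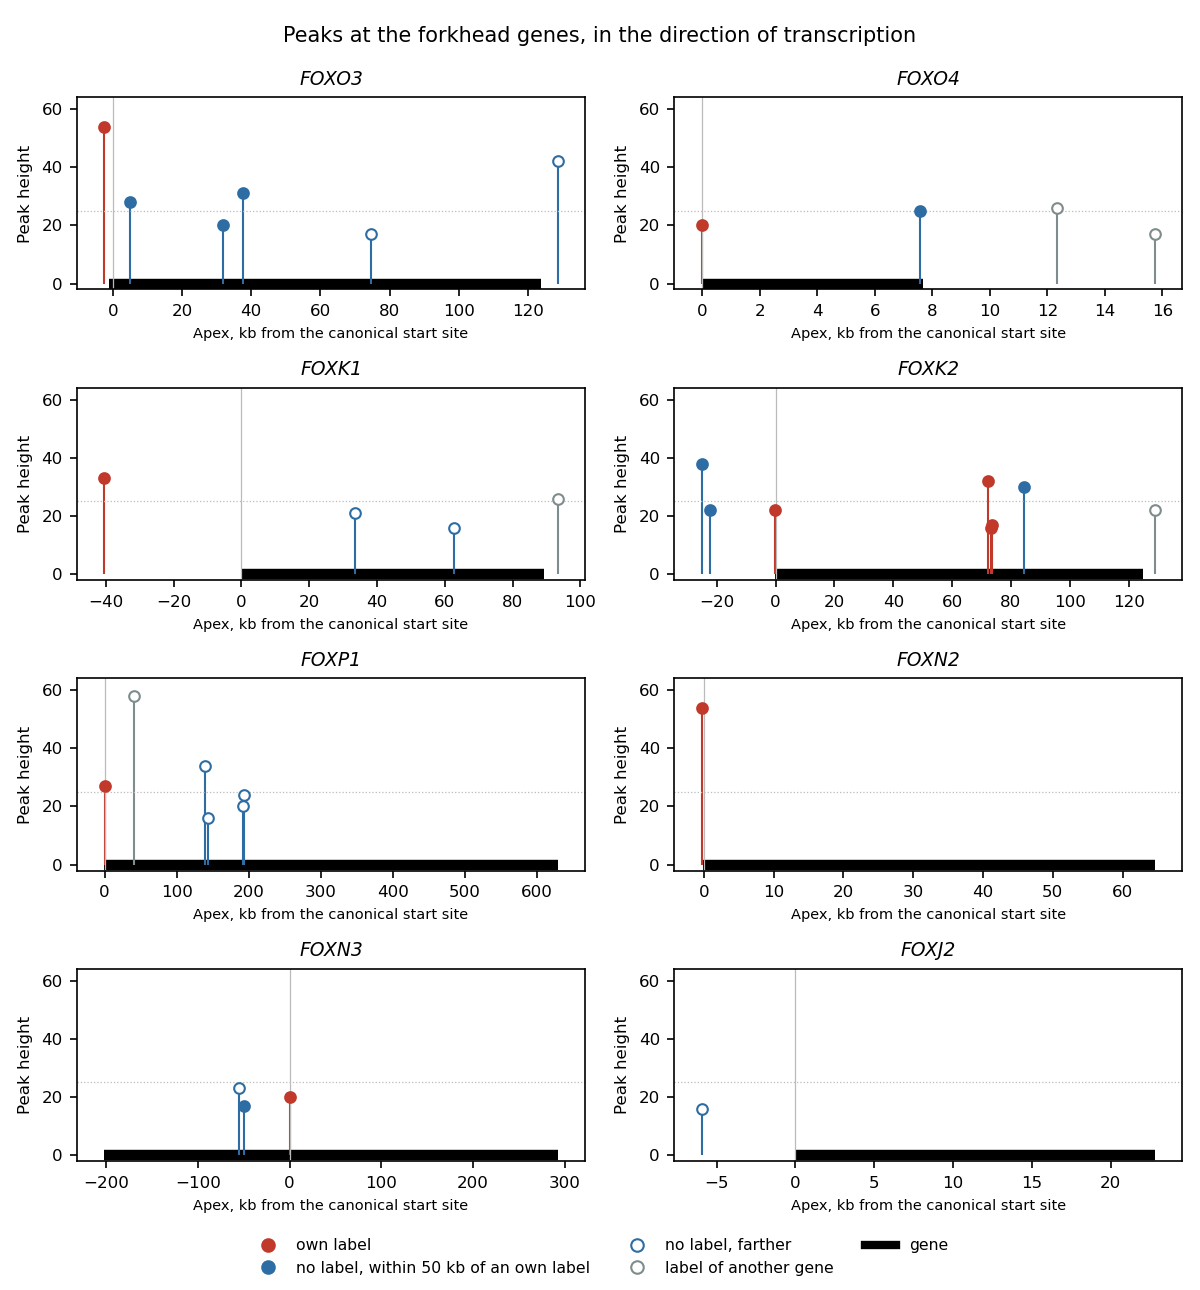
Peak height against the distance of the apex from the canonical start site (kb, in the direction of transcription) at the 8 forkhead genes with a peak over the gene or within 10 kb, or with a labelled peak. Filled red points carry the gene's own label, filled blue points are unlabelled peaks within 50 kb of one, open blue points are unlabelled peaks farther away, open grey points carry another gene's label, the black bar is the gene and the dotted line the list median of 25. FOXN2 has 1 peak of height 54, FOXK2 has 7 peaks from 16 to 38, and the grey point of 58 in FOXP1 is the MIR1284-labelled peak.

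At the limit of 50 kb, the unlabelled peak just inside was the FOXN3 peak with a height of 17, whose centre was 49.2 kb from the edge of the labelled peak. The next inside were the FOXO3 peaks at 37.5 kb and 31.8 kb, with heights of 31 and 20. Just outside were another FOXN3 peak at 54.9 kb, 228 bp wide and with a height of 23, and the FOXK1 intron 1 peak at 73.1 kb, with a height of 21.

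Of the 20090 protein-coding genes in GENCODE, 30.0% had their symbol on at least 1 peak, 53.3% had a peak over the gene or within 10 kb, and 39.3% had an apex within 1 kb of an own start site. Of the 10 forkhead genes these were 7, 8 and 5, and since the genes were chosen with the list known, nothing follows from that difference. The number of peaks over a gene or within 10 kb was 6 each for FOXO3, FOXK2 and FOXP1, 4 for FOXO4, 3 each for FOXK1 and FOXN3, 1 each for FOXN2 and FOXJ2 and 0 for FOXO1 and FOXJ3. Peaks with the label of another gene are counted too. These were CXorf65 and IL2RG at FOXO4, AP5Z1 at FOXK1, WDR45B at FOXK2 and MIR1284 at FOXP1. Counted in the same way, the median over all protein-coding genes was 1 and over those with a labelled peak 2. The genes differed in length, and the part of length in these counts was not tested. FOXP1, with 6 peaks, spans 629.3 kb and FOXN3, with 3, 494.3 kb, while FOXO4 had its 4 in and around 7.68 kb and FOXJ3 and FOXO1, of 159.3 and 111.0 kb, had none.

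**Figure D3:**
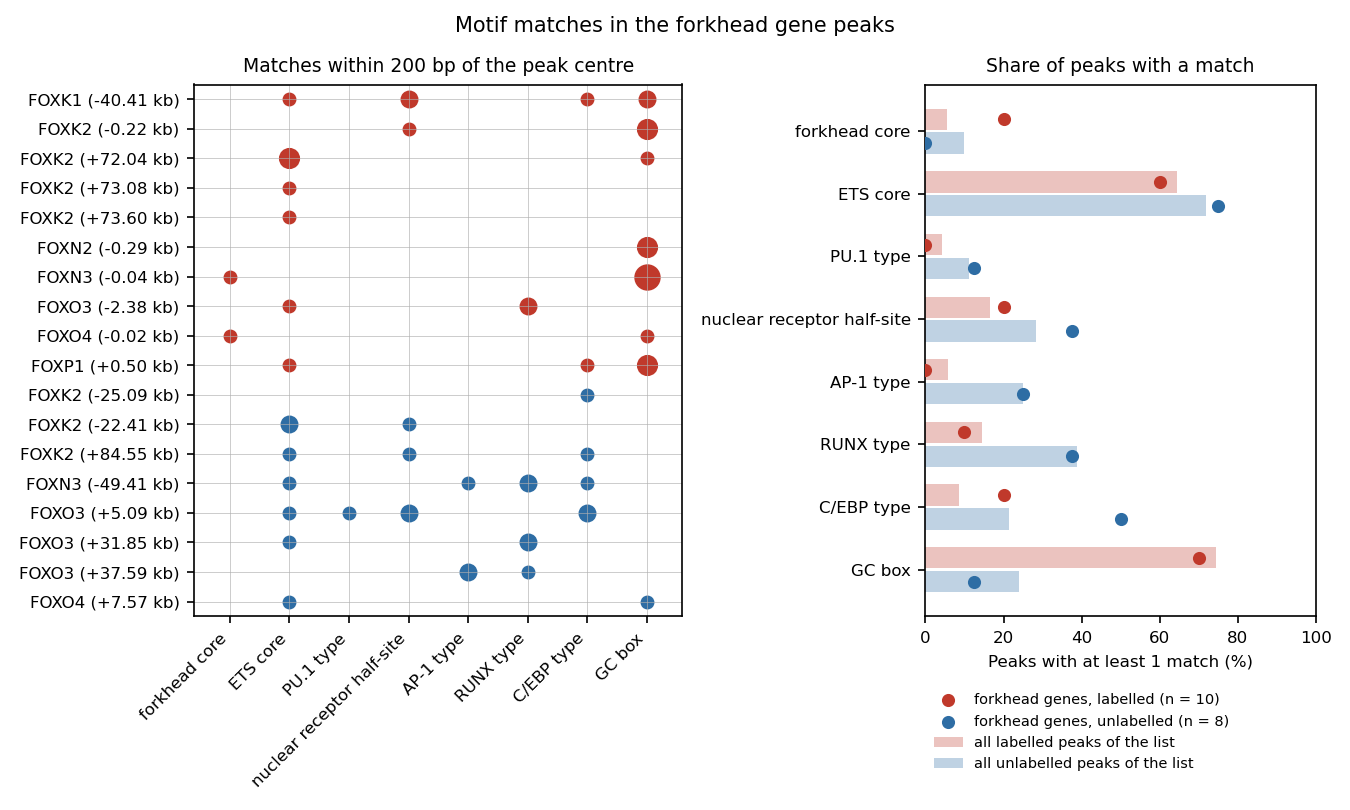
Left, matches to 8 motif classes (columns) within 200 bp of the centre of the 18 forkhead gene peaks (rows, with the distance of the apex from the canonical start in kb), where a larger point means more matches. Right, percent of peaks with at least 1 match, as points for the 10 labelled (red) and 8 unlabelled (blue) peaks and as bars for all labelled and unlabelled peaks of the list. ETS core matches occur in 12 of the 18 peaks, and GC box matches in 7 of the labelled and 1 of the unlabelled.

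The peaks were also compared by the letters of their DNA. Motifs were searched on both strands in the 401 bases around each peak centre, as exact letters. The ETS core, CGGAAG or AGGAAG, the binding core of a factor family with PU.1 among its myeloid members, was found in 12 of the 18 peaks, beside 68.3% of the list. The GC box, GGGCGG, bound by SP and KLF factors, was in 7 of the 10 labelled peaks, beside 74.4% of all labelled peaks, and in 1 of the 8 unlabelled, beside 24.01%. The C/EBP type motif, TTGCNNAA, was in 2 of the labelled and 4 of the unlabelled peaks, beside 8.51% and 21.3%. The RUNX type motif, TGTGGT, was in 1 and 3, beside 14.6% and 38.8%, and the AP-1 type motif, TGANTCA, in 0 and 2, beside 5.76% and 25.1%. The longer PU.1 type motif, GAGGAAGT, which contains an ETS core, was in 0 labelled peaks and 1 unlabelled peak, that of FOXO3 5.09 kb into the gene, beside 4.38% and 11.1%. AGGTCA, to which retinoic acid receptors bind as a repeat, was in 2 labelled and 3 unlabelled peaks, beside 16.4% and 28.4%.

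The forkhead core, TGTTTAC or TGTTTGC, was in 2 of the 18 peaks, beside 7.83% of the list. These were the peaks at the starts of FOXO4 and FOXN3, and none of the 8 unlabelled peaks had it, beside 9.83% of unlabelled peaks. A match in so short a window is a description of letters and says nothing of a factor bound there. Because the windows were centred on the peak and not on the apex, a match at an apex far off the centre is not among these counts. The median share of G and C was 63.8% in the labelled and 53.4% in the unlabelled forkhead peaks, beside 66.3% and 53.4% in the list, and the median number of CpG in the window was 31.5 and 5, beside 35 and 7.

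The other forkhead genes counted were mostly without labelled peaks. Of 34 further forkhead genes, 2 had one, or 5.88%, beside 30.0% of all protein-coding genes. These 34 were what was left once the forkhead genes described above, chosen with the list known, had been set aside. A low share is thus partly built in by that choice, and nothing follows from the difference. FOXP4, a relative of FOXP1, had a peak at chr6:41513203-41514185 983 bp wide and of height 25, with its apex 15 bp from the start of the antisense gene FOXP4-AS1. FOXH1, a partner of SMAD proteins, had a peak of 597 bp and a height of 17, whose apex was 47 bp inside PPP1R16A from the start of that gene. By the distance to GENCODE start sites, 4 of the 34 had an apex within 1 kb of a start, FOXP4, FOXA3, FOXD2 and FOXO6, the last 3 without a label of their own and named after their values were seen. Of all protein-coding genes, 39.3% had one, and the limit set by the choice of the 34 holds for this difference too. Of the 44 forkhead genes counted, 9 had a labelled peak, or 20.5%. The 44 were listed from general knowledge and are not the full family, and FOXO3B is not among them.

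The genes around the FOXO factors had labelled peaks at 35 of 60, or 58.3%, beside the 30.0% of all protein-coding genes. These lists were drawn up with the list of peaks known and hold many genes active in most cells, so the share is a count and no result about the pathway. Upstream of FOXO, in the insulin and PI3 kinase pathway, 8 of 15 genes had one. The highest were at SGK1, a kinase that like AKT phosphorylates FOXO3, with a height of 45, at PIK3R1, the regulatory subunit of PI3 kinase, and AKT2, both with 39, and at IRS2, an adaptor of the insulin receptor, with 36.

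Of the listed regulators of FOXO proteins, 12 of 15 had a labelled peak. XPO1, the exportin that carries FOXO out of the nucleus, had the highest, with 52, followed by STK11, the kinase that activates AMPK, with 50. YWHAZ, a 14-3-3 protein that holds phosphorylated FOXO in the cytoplasm, had a height of 38 over 3300 bp, and PRKAA1, a catalytic subunit of AMPK, had a height of 34. Of 30 textbook FOXO targets, 15 had a labelled peak. SESN1 and SESN3, sestrins of the oxidative stress response, had heights of 51 and 47, and GADD45A, a DNA damage gene, had 50. GADD45B had a height of 36 over 5231 bp, wider than any forkhead gene peak.

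**Figure D4:**
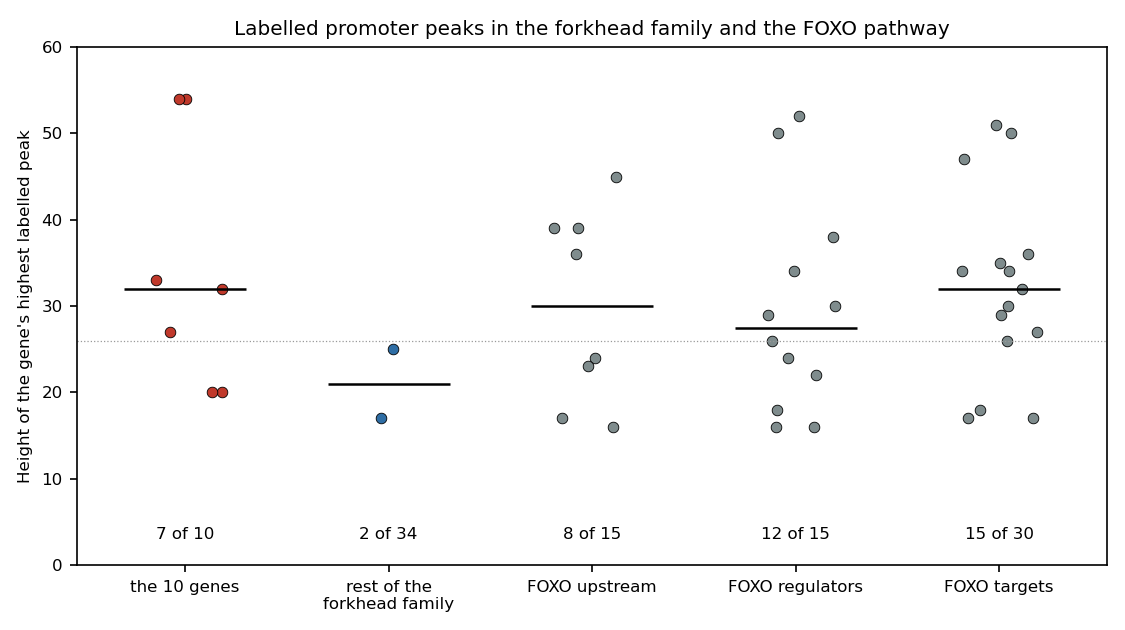
Height of the highest labelled peak of each gene with one. Colours mark the 10 forkhead genes (red), the 34 further forkhead genes (blue) and the 3 FOXO pathway lists (grey). The median is shown as a bar, with the number of genes with a labelled peak below. A dotted line stands at 26, the median of all labelled peaks. FOXO3 and FOXN2, at 54, lie above the highest gene of each pathway list (45, 52 and 51).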

How the data were processed

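Cut&Run was carried out by the authors in U937-PR9 cells with 100 μM ZnSO4 for 5 h. Reads were trimmed with Trimmomatic, mapped to hg19 with Bowtie2 and freed of duplicates with SAMtools, peaks were called with SEACR against a paired control, and peaks shared by both replicates with an IDR under 0.05 were retained. A total signal per peak was deposited by the authors, with a score that is the largest signal within it (height), both whole numbers. Their scaling, and whether 1 replicate or pooled reads gave them, are not given in the sources used here. Column meanings were taken from the values. Depth is unknown.

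Ranks, medians and counts were computed with Python 3.11.15, pandas 2.3.3 and numpy 2.4.6, and figures drawn with matplotlib 3.10.9. Distances to start sites, exons and introns came from GENCODE release 44 mapped to GRCh37, and sequences from the GRCh37 genome, both of the hg19 assembly. The peak selection was tested on simulated peaks. The forkhead genes and the family, pathway and motif lists were chosen with earlier results of these data known. All peaks of the 10 genes are named, with the highest unlabelled peak over each gene. Also named are each other labelled forkhead gene of the 44 counted and the 4 highest genes of each pathway list. No comparison between groups was made, since 1 list was used.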

Additional observations from a re-analysis of the deposited data

How the results depend on the processing

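With 1 value per peak, no spread between replicates, interval or test could be given, and how firmly low peaks were measured, such as those of height 16 and 17 at FOXK2, is unknown. The 18 peaks became 30 when every peak over a forkhead gene or within 10 kb was taken, 8 when the rule was applied after peaks under the median height had been removed, and 10 after those under the median width had. An unlabelled peak also drops out there when the labelled peak it is tied to is removed. The 2 peaks with a forkhead core became 1 in windows of 100 bp to each side and 4 over whole peaks, while the share of the list moved from 7.83% to 3.92% and 17.5%. The other 23 values recomputed, among them 13 peaks at a limit of 20 kb and 22 at 100 kb, were not counted as changed. Some of them still moved. The median height of the labelled peaks went from 24.5 to 32 with the highest peak of each gene. The median width went from 1093 to 1515.5 bp with neighbouring peaks merged. The genes with a promoter peak went from 7 to 5 when an apex within 1 kb of an own start site was asked for. No paired analysis was possible because each peak has 1 value and none by replicate, and no replicate could be left out for the same reason.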
